A study of Mus musculus with 13 samples.

Results

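The clustered Hox genes were followed through cultured mouse oligodendrocyte-lineage cells with and without Eed. The family was chosen with earlier results of these data known. Members were all rows of the count table named Hoxa, Hoxb, Hoxc or Hoxd followed by a paralogue number. There were 10 of them among 13549 rows, and 9 are described, Hoxa2 to Hoxa5 and Hoxb2 to Hoxb6, to which all counts and medians of members refer. RefSeq lists 39 clustered Hox genes for the mouse, and 29 of them, every Hoxc and Hoxd gene included, have no row in the count table. No Hoxa gene beyond Hoxa5 and no Hoxb gene beyond Hoxb6 has a row. The libraries came from 4 groups of C57BL/6 brain cells. Control oligodendrocyte precursor cells (OPCs, 2 libraries) and OPCs with a conditional knockout (cKO) of Eed (3 libraries) were grown with PDGF and NT-3. Control immature oligodendrocytes (iOLs, 2 libraries) and Eed cKO iOLs (2 libraries) were OPCs kept for 2 days with thyroid hormone and without PDGF. Libraries are named by genotype, stage and replicate number, with knockout for Eed cKO. No source used here names the driver of the deletion or says that replicates were separate animals or cultures, and p-values measure the spread between these libraries. The genotype entry reads the same for every culture, and groups were taken from the sample titles.

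Hox genes encode homeodomain transcription factors that give cells their position along the head-to-tail axis. They lie in clusters, and their order on the chromosome follows their order of expression along the body, with the low-numbered genes reaching into the hindbrain and the higher-numbered ones used in the spinal cord and trunk. Paralogues, the genes with the same number in different clusters, are close relatives with overlapping roles. The forebrain makes little Hox RNA, and Hox clusters are textbook targets of PRC2, a Polycomb complex that methylates histone H3 on its tail. Eed is a core subunit of it.

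Library depth was even, with total counts from 17417529 to 19680398. Cells of knockout OPC replicates 1 and 2 and of control OPC replicate 1 were taken on postnatal day 7, and those of the other 6 libraries on day 6. The control OPC libraries were the least alike pair of any group, with a chi-square per degree of freedom of 106 between their counts, against 6.48 between the control iOL libraries and 7.67 between knockout OPC replicates 1 and 2. Knockout OPC replicate 3, of day 6, stood at 47.3 and 47.4 from those replicates of day 7. Eed had 371 and 319 counts in control OPCs against 245, 219 and 243 in cKO OPCs, and 317 and 382 in control iOLs against 275 and 229 in cKO iOLs. The groups did not overlap at either stage, yet the difference passed the test at neither (edgeR adjusted p = 0.0847 and 0.0973). Counts are summed over the whole gene, so RNA of the deleted part was not measured. All 8 OPC markers on the list used (Pdgfra, Cspg4, Sox10 and others) were measured, at a summed 14959 to 19028 CPM in OPC libraries and 5524 to 9168 CPM in iOL libraries. CPM are counts scaled to a library's total and by the TMM factors of edgeR.

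How the table was made bears on every Hox value. Each of its genes has at least 1 count in every library and 10 or more in at least 4. Hoxa3 alone among the 9 members meets this in the control libraries by themselves. Hoxa5 and Hoxb6 reached 10 counts in no control library and in all 5 cKO libraries, so they hold a row only because they were higher in the knockout. The table has 32 such genes in all, of which 62.5% were called higher in cKO OPCs and 68.8% in cKO iOLs. Hoxa4, Hoxb4 and Hoxb5 reached 10 counts in 1 control library each, and Hoxa2, Hoxb2 and Hoxb3 in 3 each. The number of members that rose is therefore a description, and gives no support for a rise of the Hox genes as a family. The p-values of Hoxa5 and Hoxb6 are likewise descriptive, since both were selected through the groups in which they were then called higher. Every other member except Hoxa3 also reached 4 libraries only with cKO libraries counted. Its p-values in the knockout comparisons share this limit in part.

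Hox RNA was low in control OPCs and higher in Eed cKO OPCs. The 9 genes together held 224 and 133 counts in control OPC replicates 1 and 2, and 634, 626 and 419 in cKO OPC replicates 1 to 3. At an edgeR adjusted p under 0.05, 3 of the 9 rose, Hoxa5, Hoxb3 and Hoxb6, and none fell. Over all genes 2.94% rose in this comparison, 0.303% fell and 3.25% were called in either direction. The levels of cKO and control OPCs did not overlap for 8 members, with the cKO level higher, which held for 16.9% of all genes. The log2 fold changes of the 9 had a median of 1.29 against −0.02 for all genes, and all were above 0, from 0.62 to 4.09.

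In the Hoxa cluster (chromosome 6) Hoxa5 rose, by the largest fold of the 9. Hoxa5, which patterns the neck and upper trunk and the lung, had 7 and 3 counts in control OPCs and 117, 91 and 64 in cKO OPCs. Every cKO library was far above both controls, and the day 6 cKO library was the lowest of the 3. The log2 fold change was 4.09 ± 0.50 (SE; edgeR adjusted p = 0.00237). The ratio of the pooled counts was 17.4, with an exact 95% interval of 9.32 to 36.7 that covers counting error alone. With a library left out the log2 fold change ran from 3.54 without control OPC replicate 2 to 4.88 without control OPC replicate 1.

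The RefSeq promoter table holds 4 of the 9 members, Hoxa2, Hoxa3, Hoxa5 and Hoxb4. Promoters rich in CpG dinucleotides are the usual docking places of Polycomb complexes, and the 250 bases before the start of Hoxa5 and of Hoxa2 are shown because they are the richest and the poorest in CpG of these 4. Capitals mark each CpG. Hoxa5 is read on the minus strand (chr6:52204588-52204837, GRCm38.p6), and so is Hoxa2 (chr6:52164832-52165081).
Hoxa5: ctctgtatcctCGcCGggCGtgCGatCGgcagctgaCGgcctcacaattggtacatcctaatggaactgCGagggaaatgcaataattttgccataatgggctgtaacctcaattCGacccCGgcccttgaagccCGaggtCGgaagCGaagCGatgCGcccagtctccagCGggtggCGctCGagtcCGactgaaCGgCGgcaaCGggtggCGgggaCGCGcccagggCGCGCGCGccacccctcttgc
Hoxa2: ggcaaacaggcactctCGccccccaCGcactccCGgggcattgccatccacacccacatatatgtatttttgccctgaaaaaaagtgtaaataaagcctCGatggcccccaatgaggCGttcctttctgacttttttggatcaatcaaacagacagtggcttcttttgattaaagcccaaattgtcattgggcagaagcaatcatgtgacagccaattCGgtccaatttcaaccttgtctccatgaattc
The Hoxa5 window holds 28 CpG, more than 92.4% of the 32851 mouse promoter windows of this length, whose median is 6. Hoxa3 holds 18 and Hoxb4 14, more than 78.3% and 70.6% of windows, and Hoxa2 holds 6, more than 49.6%. The motif TGATTNAT, bound by Hox proteins together with their partner Pbx, was searched on both strands. It occurs in 2.82% of all windows and, among these 4, in that of Hoxa2, where it reads atcaatca on the strand shown. These matches describe the sequence alone. In cKO OPCs the fold changes beside these windows were 17.0-fold for Hoxa5, 2.28-fold for Hoxa2, 2.23-fold for Hoxa3 and 2.25-fold for Hoxb4, and with 4 genes no relation to CpG content was tested.

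Hoxa2, which sets the identity of the second pharyngeal arch, had 30 and 25 counts in control OPCs against 79, 72 and 46 in cKO OPCs, at log2 1.19 ± 0.39 (edgeR adjusted p = 0.125). Hoxa3, needed for the thymus and parathyroid, had 44 and 21 against 79, 96 and 54, at 1.15 ± 0.38 (adjusted p = 0.127). For both genes the groups did not overlap and the difference did not pass. Without the day 6 library knockout OPC replicate 3 both passed, at adjusted p = 0.0392 and 0.0425. Hoxa4, a gene of neck patterning, had 14 and 4 counts against 17, 31 and 22, at 1.29 ± 0.55 (adjusted p = 0.181), and its lowest cKO library was little above its higher control.

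In the Hoxb cluster (chromosome 11, 96194316 to 96368254, GRCm38, which mm10 corresponds to) Hoxb6 and Hoxb3 rose. Hoxb6, a gene of the trunk, had 4 counts in each control OPC library and 45, 31 and 45 in cKO OPCs. Both controls were equal and every cKO library was well above them, with no order by postnatal day. The log2 fold change was 3.23 ± 0.38 (edgeR adjusted p = 0.00204), and DESeq2 gave 3.29 with a larger SE of 0.70. The counting ratio was 9.68, with an exact 95% interval of 4.76 to 22.9. With a library left out the log2 fold change of Hoxb6 ran from 3.13 to 3.38. Hoxb3, a hindbrain gene, had 34 and 37 counts in control OPCs and 149, 150 and 81 in cKO OPCs. Its controls agreed closely and its day 6 cKO library was lower than both day 7 cKO libraries, with a log2 fold change of 1.78 ± 0.33 (adjusted p = 0.0220). This call ended without control OPC replicate 1 (adjusted p = 0.116), knockout OPC replicate 1 (0.0934) or knockout OPC replicate 2 (0.0880), and with the OPC groups fitted alone (0.0744).

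The other 3 Hoxb genes did not pass in OPCs. Hoxb5, used by the neural crest of the gut, had 16 and 4 counts in controls and 47, 41 and 30 in cKO OPCs (log2 1.89 ± 0.51, edgeR adjusted p = 0.0852). Control replicate 1 was the higher control, below every cKO library, and the gene passed without that library (log2 3.28, adjusted p = 0.0357) or without knockout OPC replicate 3 (log2 2.07, adjusted p = 0.0372). Hoxb4, known for expanding blood stem cells, had 15 and 6 against 28, 27 and 20 (log2 1.17 ± 0.45, adjusted p = 0.154). Hoxb2, which acts in the hindbrain segment of the facial nerve, had 60 and 29 against 73, 87 and 57 (log2 0.62 ± 0.38, adjusted p = 0.313). It was the only member whose OPC groups overlapped, since control replicate 1 exceeded cKO replicate 3. Several gene models overlap here. Hoxa3 spans Hoxa4 and Hoxa5 in RefSeq, Hoxb3 spans Hoxb4, and noncoding genes overlap Hoxa3, Hoxa4, Hoxa5, Hoxb2, Hoxb3, Hoxb5 and Hoxb6. No source used here says how the counting split such reads, and these values are uncertain to that extent.

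**Figure D1:**
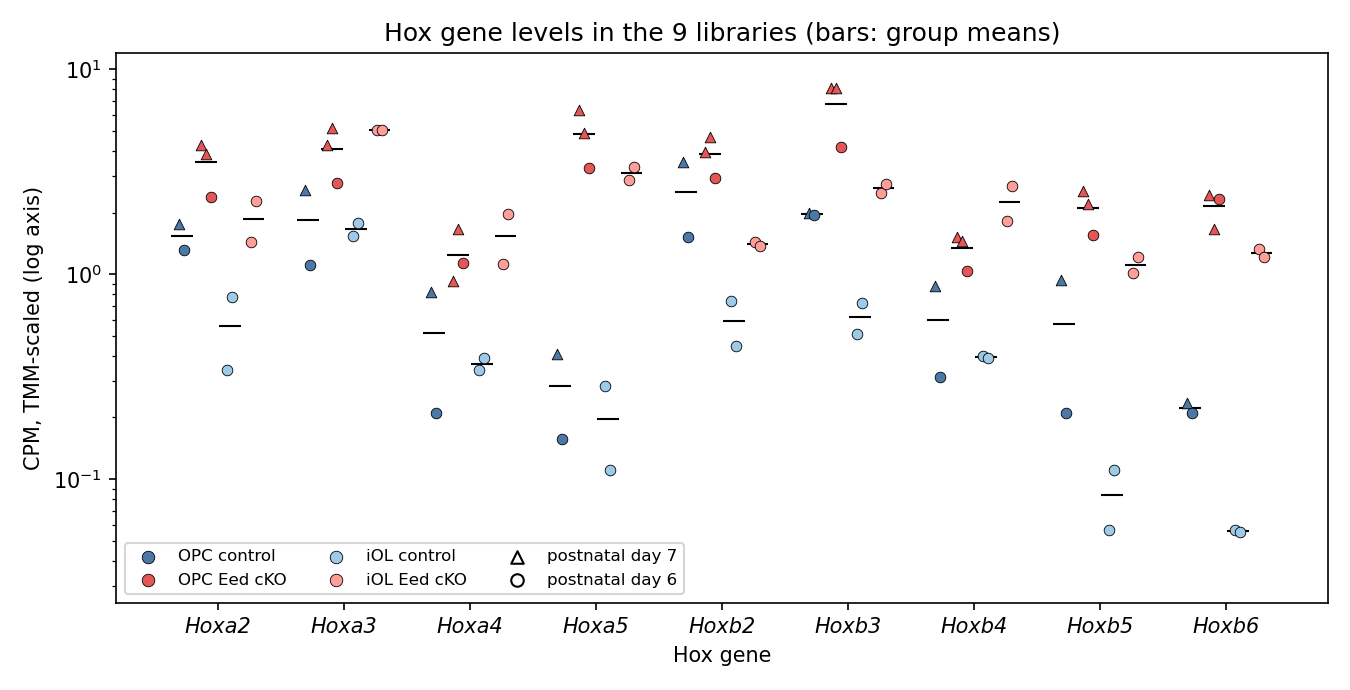
TMM-scaled CPM of 9 Hox genes (log axis) in the 9 libraries, coloured by group, with triangles for postnatal day 7, circles for day 6 and a short bar at each group mean. Every cKO iOL lies above every control iOL for all 9 genes, and the OPC groups overlap for Hoxb2; levels of different genes are not comparable here, since they are not scaled to gene length.

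Postnatal day moved with Hox levels inside the OPC groups. Control replicate 1 (day 7) exceeded control replicate 2 (day 6) for 9 of 9 members, with a median log2 ratio of 1.22 against 0.03 over all genes. Among cKO OPCs the mean of the day 7 replicates exceeded the day 6 replicate for 8 of 9, with a median log2 ratio of 0.62 against 0.01 over all genes. Markers of other cell types moved with the same split. Astrocyte markers, 7 of 7 measured, summed to 2978 CPM in the day 7 and 8805 CPM in the day 6 control OPC library, and to 2697 and 2902 against 7009 CPM in cKO OPCs. Oligodendrocyte markers, 8 of 8 measured, went the other way, at 6569 against 2214 CPM in controls and 2048 and 2828 against 1048 CPM in cKO OPCs. Each day has 1 control OPC library, and the part of day or of these markers in the Hox differences was not tested beyond the values that follow. Within a day the cKO difference was above 0 for each of the 9 genes. For Hoxa5 it was 3.78 on day 7 and 4.39 on day 6 on the log2 scale, for Hoxb6 3.13 and 3.46, and for Hoxb3 2.02 and 1.10. Hoxb2 gave 0.30 and 0.95, Hoxb5 1.34 and 2.88, and Hoxa4 0.66 and 2.43, each with the larger value on day 6. In the same order, control replicate 1 had 60, 16 and 14 counts and control replicate 2 had 29, 4 and 4. With postnatal day as a term in the model the 3 calls stood, and Hoxa3 (log2 1.04, edgeR adjusted p = 0.0241) and Hoxb5 (1.79, adjusted p = 0.0193) passed as well.

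In iOLs Eed cKO cells again held more Hox RNA than controls. The 9 genes summed to 75 and 86 counts in control iOLs and to 349 and 414 in cKO iOLs, all of postnatal day 6. By edgeR's test 6 of 9 rose, Hoxa3, Hoxa5, Hoxb3, Hoxb4, Hoxb5 and Hoxb6, and none fell, where 7.08% of all genes rose, 3.51% fell and 10.6% were called in either direction. Control and cKO iOLs did not overlap for any of the 9, always with the cKO level higher, a pattern that 33.6% of all genes shared. The median log2 fold change was 2.08 against −0.00 over all genes, in a range from 1.24 to 4.35.

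Hoxb6 rose most in iOLs. It had 1 count in each control library and 25 and 23 in the cKO libraries. The control level is a single read per library, so the fitted log2 fold change of 4.35 (edgeR adjusted p = 0.00165) rests on 2 control reads. Its SE of 0.54, derived from the F statistic, is small for so few reads, and DESeq2 gave 4.50 ± 1.15. The counting ratio of 22.7 has an exact 95% interval of 5.94 to 193. Hoxa5 had 5 and 2 counts against 54 and 63 (log2 3.93 ± 0.56, adjusted p = 0.00293; counting ratio 15.8, interval 7.43 to 40.1). Hoxb5 had 1 and 2 against 19 and 23 (log2 3.62 ± 0.80, adjusted p = 0.0200; counting ratio 13.2, interval 4.23 to 66.7). For these 3 genes both cKO libraries agreed closely with each other. With a library left out the log2 fold changes ran from 3.42 to 4.72 for Hoxa5 and from 4.28 to 4.41 for Hoxb6. The call of Hoxb5 ended without each iOL library, at log2 fold changes from 3.25 to 4.14.

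Hoxb4 had 7 counts in each control iOL library and 34 and 51 in the cKO libraries, at log2 2.50 ± 0.49 (edgeR adjusted p = 0.0129). Hoxb3 had 9 and 13 counts against 47 and 52, at 2.08 ± 0.42 (adjusted p = 0.0142). Hoxa3 had 27 and 32 against 95 and 96, at 1.61 ± 0.41 (adjusted p = 0.0376). Each rose, and each call rested on all libraries of the comparison or nearly so. That of Hoxb4 ended without control iOL replicate 1, control iOL replicate 2 or knockout iOL replicate 2 (adjusted p from 0.0884 to 0.100). That of Hoxb3 ended without each iOL library (0.0658 to 0.127), and that of Hoxa3 without each iOL library or knockout OPC replicate 1 (0.0650 to 0.226). With a library left out, 1 iOL group is a single library that is assumed to vary like the others.

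The other 3 members did not pass in iOLs, although cKO libraries were above control libraries for each. Hoxa2 had 6 and 14 counts against 27 and 43 (log2 1.71 ± 0.49, edgeR adjusted p = 0.0574), and Hoxa4 had 6 and 7 against 21 and 37 (2.05 ± 0.61, adjusted p = 0.0629). Hoxb2 had 13 and 8 against 27 and 26 (1.24 ± 0.51, adjusted p = 0.176). All 3 passed when the iOL groups were fitted alone (edgeR adjusted p = 0.0383 for Hoxa2, 0.0194 for Hoxa4 and 0.0482 for Hoxb2), and again with postnatal day as a term (0.0168, 0.0265 and 0.0431). Hoxa2 also passed with DESeq2 (adjusted p = 0.0290) and without knockout OPC replicate 3 (0.0413), and Hoxa4 without control OPC replicate 1 (0.0249) or 2 (0.0246). Hoxb2, the member that overlapped in OPCs, thus had its cKO libraries at matching levels and above both controls.

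**Figure D2:**
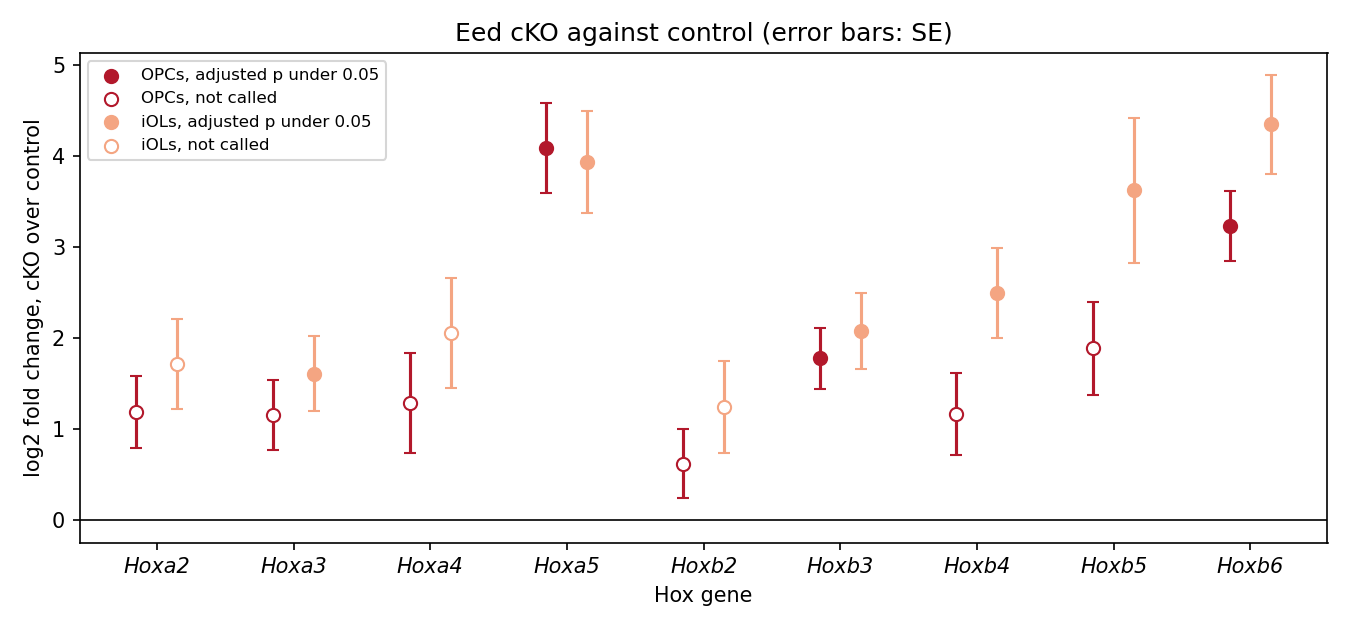
log2 fold change of Eed cKO over control with its SE for 9 Hox genes in OPCs (2 control and 3 cKO libraries) and in iOLs (2 and 2 libraries), with filled points where the edgeR adjusted p was under 0.05. Hoxa5 and Hoxb6 lie highest in OPCs at 4.09 and 3.23, and the iOL values rise from Hoxb2 to Hoxb6. SEs come from the F statistic, and DESeq2 gave larger ones for all 9 genes, for Hoxb6 0.70 in OPCs and 1.15 in iOLs.

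The order of the fold changes by paralogue number is given as a description. It ends at Hoxa5 and Hoxb6, the highest-numbered genes of their clusters with a row. In iOLs the log2 fold changes of Hoxb2, Hoxb3, Hoxb4, Hoxb5 and Hoxb6 were 1.24, 2.08, 2.50, 3.62 and 4.35, an unbroken order. Those of Hoxa2 to Hoxa5 were 1.71, 1.61, 2.05 and 3.93. Across the 9 genes Spearman's rho of paralogue number and log2 fold change was 0.92 in iOLs and 0.79 in OPCs. The genes share their libraries and are not independent replicates, and the limit of 10 counts in 4 libraries admits a gene that is low in controls only if it is higher in the knockout. Neighbouring values such as 2.05 ± 0.61 for Hoxa4 and 2.08 ± 0.42 for Hoxb3 did not differ beyond their SE. Paralogues were close for number 4 in OPCs (Hoxa4 1.29, Hoxb4 1.17) and for number 5 in iOLs (Hoxa5 3.93, Hoxb5 3.62), and further apart for number 5 in OPCs (4.09 and 1.89).

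Whether the knockout changed Hox genes more in one stage than in the other was tested as a difference of differences. None of the 9 passed (edgeR adjusted p from 0.332 to 0.939), where 1.83% of all genes did, 0.945% higher and 0.886% lower. Before adjustment 0 of 9 had an edgeR p under 0.05, against 18.3% of all genes, and DESeq2 called 0 of the 5 for which it gave an adjusted p. The estimates, iOL effect minus OPC effect, ran from −0.15 ± 0.94 for Hoxa5 to 1.73 ± 1.02 for Hoxb5, with 1.33 ± 0.69 for Hoxb4. With SEs of 0.53 to 1.02 on the log2 scale, equal effects are not shown.

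Differentiation of control cells was compared next. From control OPCs to control iOLs 4 of 9 Hox genes fell, Hoxa2, Hoxb2, Hoxb3 and Hoxb5, and none rose. Of all genes 25.3% fell, 21.0% rose and 46.3% were called in either direction, so that many genes moved over these 2 days. Levels of iOLs and OPCs did not overlap for 5 members, all lower in iOLs, against 37.6% of all genes. Hoxb2 went from 60 and 29 counts to 13 and 8 (log2 −2.07 ± 0.49, edgeR adjusted p = 0.00727), and Hoxb3 from 34 and 37 to 9 and 13 (−1.66 ± 0.43, adjusted p = 0.0116). Both fell in every iOL library relative to every OPC library. Hoxb5 (log2 −2.64 ± 0.88, adjusted p = 0.0347) and Hoxa2 (−1.44 ± 0.50, adjusted p = 0.0413) also fell. Hoxb6, at 4 and 4 counts before and 1 and 1 after, did not pass (−1.86 ± 0.72, edgeR adjusted p = 0.0960). For Hoxb6 DESeq2 gave −1.96 ± 1.24. Hoxa3, Hoxa4, Hoxa5 and Hoxb4 overlapped between the stages, with log2 values from −0.57 to −0.14.

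These calls in controls depended on single libraries. Without control OPC replicate 1 Hoxb5 was at −1.26 (adjusted p = 0.319) and Hoxa2 at −1.22 (0.143). Hoxb5 lost its call without any 1 of the 4 iOL libraries, at adjusted p of 0.157 and 0.0960 without control iOL replicates 1 and 2 and of 0.0502 and 0.0503 without knockout iOL replicates 1 and 2. Hoxa2 lost it without control iOL replicate 1 (0.227), knockout iOL replicate 2 (0.0502) and knockout OPC replicates 1 and 2 (0.0516 and 0.0565). That of Hoxb2 ended without control iOL replicate 2 (0.0619) and that of Hoxb3 without control iOL replicate 1 (0.0820). The first control OPC replicate is of day 7 and both control iOL libraries are of day 6, so stage and day are partly mixed in this comparison. With postnatal day as a term Hoxa2 no longer passed (edgeR adjusted p = 0.0717), while Hoxb2, Hoxb3 and Hoxb5 did. With the control groups fitted alone Hoxa2 did not pass either (0.0957), and the low-count filter removed Hoxb5, along with Hoxa4, Hoxa5, Hoxb4 and Hoxb6.

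In Eed cKO cells 2 of 9 Hox genes fell from OPCs to iOLs, Hoxb2 and Hoxb3, and none rose. Of all genes 21.8% fell, 18.5% rose and 40.3% were called in either direction, so the fall of 2 is near the background. Hoxb3 went from 149, 150 and 81 counts to 47 and 52 (log2 −1.37 ± 0.32, edgeR adjusted p = 0.00856), and Hoxb2 from 73, 87 and 57 to 27 and 26 (−1.45 ± 0.40, adjusted p = 0.0173). Levels of Hoxb3 were 2.63 ± 0.18 CPM (SD, n = 2) in cKO iOLs and 1.97 ± 0.03 (SD, n = 2) in control OPCs, and those of Hoxb2 were 1.41 ± 0.04 and 2.52 ± 1.41, differences that were not tested. Hoxb2 lost its call without knockout OPC replicate 2 (0.0551), knockout iOL replicate 1 (0.0968) or knockout iOL replicate 2 (0.108), and Hoxb3 without knockout iOL replicate 1 (0.0734) or 2 (0.0569). Levels of iOLs lay below those of OPCs without overlap for 5 members and above them for 1, Hoxb4, against 34.7% and 34.3% of all genes.

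Hoxa3, Hoxa4 and Hoxb4 had estimates above 0 between cKO OPCs and cKO iOLs. Hoxb4 had 28, 27 and 20 counts in cKO OPCs and 34 and 51 in cKO iOLs (log2 0.75 ± 0.38, edgeR adjusted p = 0.139). Hoxa3 had 79, 96 and 54 and then 95 and 96 (0.31 ± 0.35, adjusted p = 0.504), and Hoxa4 had 17, 31 and 22 and then 21 and 37 (0.31 ± 0.46, adjusted p = 0.629). None passed in the fit of the 4 groups. With postnatal day as a term Hoxa3 (0.97, adjusted p = 0.0129) and Hoxb4 (1.32, adjusted p = 0.0206) passed. The cKO iOLs are of day 6, and 8 of 9 members were lower in the day 6 than in the day 7 cKO OPC libraries. Hoxa5 (−0.64 ± 0.36), Hoxa2 (−0.92 ± 0.38), Hoxb5 (−0.91 ± 0.46) and Hoxb6 (−0.75 ± 0.29) did not pass either (adjusted p from 0.0649 to 0.180). Hoxa2 passed without knockout OPC replicate 3 (adjusted p = 0.0345), and Hoxb5 without control OPC replicate 1 (0.0427) or 2 (0.0428).

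**Figure D3:**
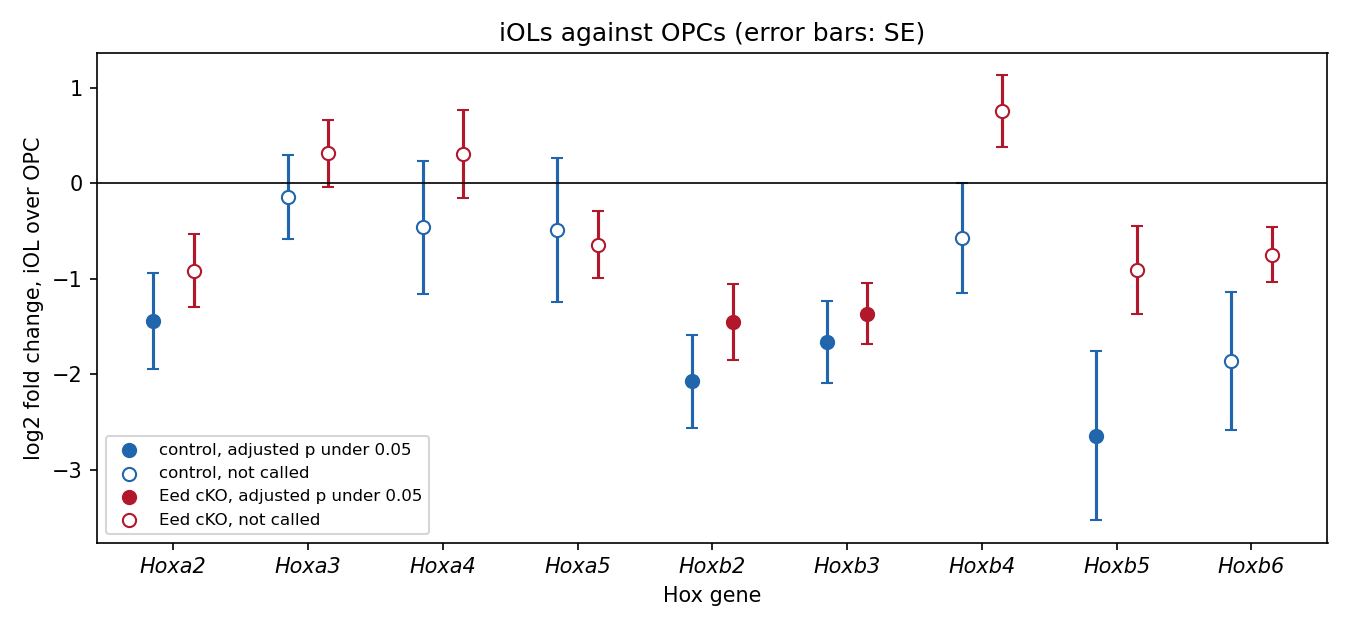
log2 fold change of iOLs over OPCs with its SE for 9 Hox genes in control and in Eed cKO cultures, with filled points where the edgeR adjusted p was under 0.05. Hoxb2 and Hoxb3 fell in both genotypes, and Hoxb4, Hoxa3 and Hoxa4 lie above 0 in cKO cells. SEs come from the F statistic, and DESeq2 gave larger ones for all 9 genes, for Hoxb6 1.24 in control and 0.52 in cKO cells.

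Within the family, profiles of log2 CPM over the 9 libraries paired Hoxa2 with Hoxb3 (Pearson r = 0.97), Hoxa5 with Hoxb6 (0.96), and Hoxa3 with Hoxb4 (0.96). Hoxb2 and Hoxb4 were the least alike pair of the family (0.50). These correlations share libraries and low counts and carry no test. Over all other genes the profiles most like Hoxa5 were those of Hmx1 (r = 0.993), Cdkn2a (0.986), Neurod6 (0.985), Mkx (0.984) and Igf2bp1 (0.983). Those most like Hoxb6 were Neurod6 (0.985), Ebf3 (0.983), Cdkn2a (0.982), Dgkk (0.978) and Sp8 (0.977). Hmx1, Neurod6, Mkx, Ebf3 and Sp8 encode transcription factors, Cdkn2a cell-cycle inhibitors and Igf2bp1 an RNA-binding protein. Cdkn2a, for example, had 9 and 2 counts in control OPCs, 405, 380 and 373 in cKO OPCs, 1 and 1 in control iOLs and 228 and 260 in cKO iOLs. Hmx1 and Cdkn2a, like Hoxa5 and Hoxb6, reached 10 counts in no control library and hold a row only through the knockout. All of these genes had more counts in each cKO library than in any control library. Their r values therefore cannot separate likeness to Hoxa5 or Hoxb6 from a shared difference between cKO and control, and carry no test.

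Of the noncoding genes of the clusters, Hotairm1 and Hoxaas2 of the Hoxa cluster were the 2 of 19 listed that were measured, and neither passed in a knockout comparison. Hotairm1 had 16 and 9 counts in control OPCs, 34, 24 and 13 in cKO OPCs, 3 and 5 in control iOLs and 16 and 19 in cKO iOLs (log2 0.85 ± 0.49 in OPCs and 2.02 ± 0.65 in iOLs, edgeR adjusted p = 0.291 and 0.0872). Hoxaas2 overlaps Hoxa3, and their reads may not be separable. Among 34 measured genes within 500 kb outside the 4 clusters, a window chosen after values were seen, 2 rose in cKO OPCs and 3 in cKO iOLs, and none fell at either stage. For this and the lists that follow, 2.94% of all genes rose in cKO OPCs and 7.08% in cKO iOLs, and 0.303% and 3.51% fell, so that the neighbours' counts are near those of any genes. Igf2bp1, 188.4 kb from the Hoxb cluster, rose by log2 4.74 ± 0.34 in OPCs and 3.76 ± 0.35 in iOLs (adjusted p = 0.000143 and 0.000638), and kept both calls without each library. Skap2, which encodes an adaptor protein and lies 142.8 kb from the Hoxa cluster, rose by 0.90 ± 0.17 and 1.12 ± 0.18 (adjusted p = 0.0246 and 0.00546). Its OPC call ended without control OPC replicate 1 (0.118), knockout OPC replicate 2 (0.100) or knockout iOL replicate 1 or 2 (0.0518 and 0.0517), and its iOL call without control iOL replicate 1 or 2 (0.0532 and 0.0546). The third was Zfp385a, 277.0 kb from the Hoxc cluster, at log2 0.51 ± 0.13 in iOLs (adjusted p = 0.0399), a call that ended without each iOL library or knockout OPC replicate 1 or 2 (0.058 to 0.288). The median log2 fold change of all 36 measured genes within the window, Hotairm1 and Hoxaas2 included, was −0.05 in OPCs and 0.03 in iOLs.

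**Figure D4:**
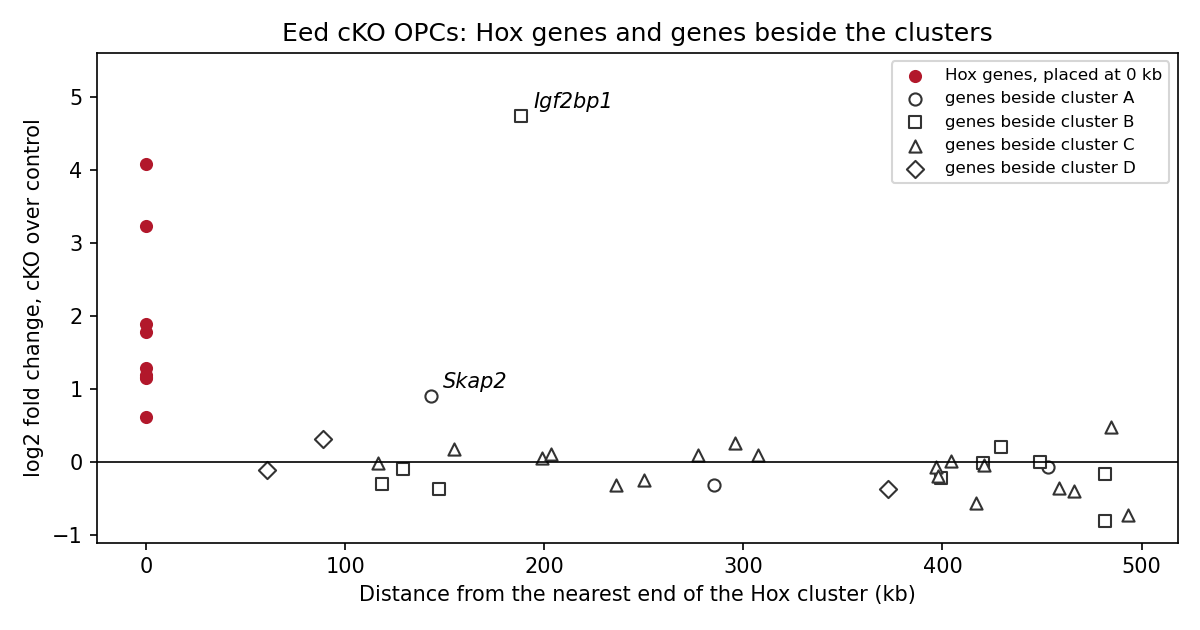
log2 fold change of Eed cKO over control OPCs for 9 Hox genes, all placed at 0 kb, and for 34 measured genes outside the clusters against their distance from the nearest cluster end in kb, with a marker shape per cluster. Igf2bp1 (4.74) and Skap2 (0.90) are the 2 neighbours that passed the test, and the other 32 did not.

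Hox proteins bind DNA together with TALE homeodomain partners of the Pbx, Meis and Pknox families. Of 8 such cofactor genes, all measured, 1 rose in cKO OPCs and 3 in cKO iOLs, and none fell. Meis2 rose at both stages, by log2 0.57 ± 0.12 in OPCs (edgeR adjusted p = 0.0298) and 1.12 ± 0.13 in iOLs (adjusted p = 0.00118). Meis1 (0.82 ± 0.15) and Pknox1 (0.68 ± 0.15) rose in iOLs, with adjusted p of 0.0107 and 0.0179. The median of the 8 was −0.01 in OPCs and 0.25 in iOLs. Meis2 in iOLs kept its call without each library. The OPC call of Meis2 ended without control OPC replicate 1, knockout OPC replicate 1 or 2 or either iOL control library (adjusted p from 0.0638 to 0.120). In iOLs the call of Meis1 ended without either iOL control or knockout iOL replicate 1 (0.0693 to 0.104), and that of Pknox1 without each iOL library (0.0688 to 0.147).

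Upstream of Hox genes, retinoic acid is the best known inducer of the low-numbered members in the hindbrain. Of 19 measured genes on a list of retinoid genes, Cdx-type and trithorax activators and hindbrain factors, 2 rose in cKO OPCs and 7 in cKO iOLs, and none fell. The median log2 fold change was 0.31 in OPCs and 0.98 in iOLs. Aldh1a2, which makes retinoic acid, had 7 and 18 counts in control OPCs, 244, 295 and 216 in cKO OPCs, 1 and 2 in control iOLs and 41 and 57 in cKO iOLs. Each cKO library was above each control library of its stage, and the log2 fold changes were 4.27 ± 0.37 and 4.84 ± 0.57 (edgeR adjusted p = 0.000393 and 0.00135). In iOLs the retinoic acid binding protein gene Crabp1 (log2 2.76 ± 0.36) and the receptor gene Rarb (1.83 ± 0.22), itself a target of retinoic acid, rose too, with adjusted p of 0.00192 and 0.00161. Aldh1a2, Crabp1 and Rarb kept these calls without each library. In OPCs Crabp1 (14 and 23 counts in control, 23, 27 and 27 in cKO) was not called. Nor was Rarb there (56 and 50 in control, 62, 87 and 86 in cKO). Cyp26b1 and Dhrs3, also on the list, were named after their values were seen. Counts of Cyp26b1 in OPCs went from 654 and 2845 in control to 508, 499 and 1951 in cKO. In iOLs they went from 261 and 366 to 923 and 915. For Dhrs3 they went from 267 and 643 to 140, 129 and 456 in OPCs. In iOLs Dhrs3 went from 147 and 188 to 740 and 713. Every cKO OPC library was thus below the control of its postnatal day, and every cKO iOL library above both controls. The part of retinoic acid in the Hox values was not tested. Stra6, a retinol transporter gene, also rose in iOLs (1.55 ± 0.41, adjusted p = 0.0433), a call that ended without each iOL library or knockout OPC replicate 1 or 2 (adjusted p of at least 0.0710) and with DESeq2 (adjusted p = 0.153). Rara, a receptor gene, rose in OPCs (0.66 ± 0.15, adjusted p = 0.0455), a call that ended without any single library except control OPC replicate 2 and knockout OPC replicate 3 (adjusted p from 0.0747 to 0.189).

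Of 32 measured Polycomb genes, 1 rose in cKO OPCs and 5 rose and 2 fell in cKO iOLs, where 2.94% of all genes rose in OPCs and 7.08% rose and 3.51% fell in iOLs. The OPC count is thus at the background. Bmi1, a subunit of the other Polycomb complex, PRC1, rose at both stages (log2 1.04 ± 0.13 and 0.73 ± 0.14, edgeR adjusted p = 0.00258 and 0.0107). In iOLs Epop (1.41 ± 0.28), a PRC2 partner, and Cbx7 (0.90 ± 0.22) and Cbx2 (0.84 ± 0.22), PRC1 subunits that read the PRC2 mark, rose as well, with adjusted p from 0.0132 to 0.0397. The OPC call of Bmi1 stood without each library. Its iOL call ended without each iOL library (0.0645 to 0.0905), and that of Epop without either iOL control or knockout iOL replicate 1 (0.0925 to 0.0965). Those of Cbx7 and Cbx2 ended without each iOL library or knockout OPC replicate 2, and Cbx2 also without knockout OPC replicate 1, at adjusted p from 0.0532 to 0.304. The remaining called members, Phf19 (0.60 ± 0.15), Pcgf3 (−0.50 ± 0.12) and Yaf2 (−0.56 ± 0.13), were named after their values were seen, and each lost its call without any 1 iOL library (adjusted p from 0.0593 to 0.267). The median of the 32 was 0.19 in OPCs and 0.10 in iOLs.

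Since these are bulk cultures, more cells with Hox RNA and more Hox RNA per cell cannot be told apart. Of 8 markers of spinal cord and hindbrain neurons, 3 were measured (Lbx1, Slc5a7 and Slc6a5). Their summed level was 15.8 to 16.9 CPM in control OPCs against 13.1 to 20.0 in cKO OPCs, and 15.8 to 19.9 in control iOLs against 12.3 to 15.3 in cKO iOLs. These ranges overlapped in OPCs and were lower in cKO iOLs. Lbx1 rose in cKO OPCs (log2 1.31 ± 0.23, edgeR adjusted p = 0.0178; 0.0680 to 0.0800 without control OPC replicate 1 or knockout OPC replicate 1 or 2). Slc5a7 fell in cKO iOLs (−1.88 ± 0.32, adjusted p = 0.0064; 0.0511 and 0.0711 without control iOL replicate 2 or knockout iOL replicate 1). Both were named after their values were seen. The 8 general neuron markers summed to 500 to 649 CPM in control and 517 to 774 CPM in cKO OPCs, and to 802 to 827 and 723 to 739 CPM in iOLs, with 0 and 1 of 8 called higher. Astrocyte markers, which overlapped between the genotypes in OPCs, summed to 5990 to 6264 CPM in control and 9005 to 10965 CPM in cKO iOLs. In iOLs 0 of the 7 were called, and Gfap, with the most counts, went from 66532 and 65842 to 114921 and 150123. Oligodendrocyte markers summed to 5690 to 5738 CPM in control iOLs and 1471 to 2154 in cKO iOLs, with 4 of 8 lower. Of 6 endothelial markers 2 were measured, Flt1 and Kdr, while Pecam1, Cdh5, Cldn5 and Tek have no row in the count table. Flt1 and Kdr rose at each stage. Their sum was 1.87 to 2.79 CPM in control and 9.70 to 10.5 CPM in cKO OPCs. In iOLs it was 35.3 to 40.4 CPM in control and 87.5 to 103 CPM in cKO libraries. Flt1 kept its OPC call (log2 4.35 ± 0.40, edgeR adjusted p = 0.000469) without each library and lost that in iOLs (1.87 ± 0.38, adjusted p = 0.0140) without control iOL replicate 1 or 2 or knockout iOL replicate 2 (0.0959 to 0.102). The OPC call of Kdr (1.22 ± 0.24, adjusted p = 0.0264) ended without control OPC replicate 1, knockout OPC replicate 1 or 2 or either cKO iOL library (0.0507 to 0.120) and with the OPC groups fitted alone (0.162). Its iOL call (1.32 ± 0.20, adjusted p = 0.00402) ended without control iOL replicate 2 (0.0502). Of 7 microglia markers P2ry12 alone was measured, at 1.12 to 2.48 CPM, and it was not called. Of 6 measured pericyte, fibroblast and meningeal markers 0 were called in OPCs and 1 was higher in iOLs, and of 5 Schwann and neural crest markers none was called. Hbb-b1, of red blood cells, was at 562 to 2877 CPM in control OPCs and 780 to 1044 CPM in cKO OPCs, and at most 1.17 CPM in iOLs. The part of these differences in the Hox values was not tested.

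Genes that mark other positions along the brain were compared in the same libraries. Of 10 forebrain position genes 5 rose and 1, Nkx2-1, fell in cKO OPCs, and 7 rose in cKO iOLs. Emx1, a gene of the cortex, had 23 and 28 counts in control OPCs and 90, 68 and 93 in cKO OPCs (log2 1.65 ± 0.29, edgeR adjusted p = 0.0179; 0.0945 without control OPC replicate 1 and 0.0803 without knockout OPC replicate 1). Nkx2-1 was at −1.94 ± 0.32 (adjusted p = 0.0133; 0.0737 and 0.0504 without the same libraries). Their summed level was 115 to 121 CPM in control and 182 to 200 CPM in cKO OPCs, and 56.0 to 58.4 against 105 to 131 CPM in iOLs. Of 6 measured midbrain and hindbrain position genes 1 rose in cKO OPCs, En1 (1.23 ± 0.23, adjusted p = 0.0230), and 4 in cKO iOLs. That of En1 in OPCs ended without knockout OPC replicate 1 or 2 or knockout iOL replicate 1 or 2 (0.0521 to 0.106). Emx1, Nkx2-1 and En1 were named after their values were seen.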

How the data were processed

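RNA-seq libraries of 9 mouse cultures were used, and the chromatin libraries were not analysed here. The deposited values are whole-number read counts per gene, made by the authors. The submitters' processing notes name cutadapt 1.14, STAR 2.6.0, featureCounts from Subread 1.6.2 and mm10, and strand settings are not given in the sources used here. Per the labels' protocols, a stranded kit or a low-input kit was used depending on the amount of RNA, and which library had which is not stated. Total counts were 17417529 to 19680398. Gene-wise tests used edgeR 4.0.16 (TMM, quasi-likelihood, all 4 groups in a single model with 5 residual degrees of freedom, R 4.3.3), with Benjamini-Hochberg adjustment over 13549 genes and a threshold of 0.05. Its low-count filter removed 0 genes. SEs were derived from the F statistic and can be too small where counts are few. For each of the 9 Hox genes they were smaller than those of DESeq2 in both knockout and both differentiation comparisons. Counting ratios carry exact 95% intervals for counting error. The procedure was tested on simulated data, with log2 changes set in randomly drawn genes. The simulation held no split by postnatal day and no selection of genes through the knockout, so it does not bear on these limits. Alternatives were RLE size factors, other filters, only the groups compared, a replicate block, postnatal day as a term, DESeq2 1.42.0 and leaving out each library. Symbols were matched to RefSeq GRCm38.p6 (97.9% matched), which also gave promoter sequences and positions.

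Every Hox gene was named, except that 1 Hox row, 1 cofactor and 1 activator are not reported here and were left out of the counts of members and lists. From 6 lists (cluster noncoding genes, cluster neighbours, cofactors, activators, Polycomb genes, related homeobox genes), at most the 4 called members of largest change per knockout comparison were named, plus Eed. For likeness, the 5 genes with the highest Pearson r of log2 CPM (prior count 2) over 9 libraries were named. Members and lists were chosen with earlier results of these data known.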

Additional observations from a re-analysis of the deposited data

How the results depend on the processing

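The count of Hox genes that rose in Eed cKO OPCs, 3, was 5 with postnatal day as a term, 2 with only the groups compared, and ran from 2 to 6 (without knockout OPC replicate 3) with a library left out. In iOLs the count of 6 ran from 2 (without control iOL replicate 1 or 2 or knockout iOL replicate 2) to 7 with a library left out, and was 9 with only the groups compared and with postnatal day as a term. From control OPCs to iOLs the 4 that fell were 2 with only the groups compared, 3 with postnatal day as a term and 1 (without control iOL replicate 1) to 4 with a library left out. In cKO cells the 2 that fell ran from 0 (without either iOL Eed cKO library) to 3, and 2 rose with postnatal day as a term. The cause was not tested, except that the low-count filter removed Hoxa4, Hoxa5, Hoxb4, Hoxb5 and Hoxb6 from the control groups fitted alone. Of these, Hoxb5 alone was called in the main fit of that comparison. With only the groups compared the OPC calls of Meis2, Skap2, Rara, En1, Lbx1 and Kdr ended (adjusted p from 0.0712 to 0.162). RLE size factors, no filter and DESeq2 kept these counts within 1.5 times. The replicate numbers are not said to mark a shared batch, and same-numbered OPC libraries deviated from their groups with r = 0.31 and −0.35. With a replicate block the counts were 4 and 6 higher for the knockout, 3 and 3 lower for differentiation, and 0 for the difference between stages. Under the block Hoxb5 passed in OPCs (adjusted p = 0.0452) and Hoxa2 from cKO OPCs to iOLs (0.0425), while Hoxb5 from control OPCs to iOLs (0.0501) and Stra6 in iOLs (0.0569) did not. Values that changed sign were all uncalled. From control OPCs to iOLs, Hoxa3 was 0.40 with postnatal day as a term. With a library left out Hoxa3 ran from −0.64 to 0.58, Hoxa4 from −1.15 to 0.77, Hoxa5 from −1.28 to 0.30 and Hoxb4 from −1.15 to 0.31. In cKO cells Hoxa4 ran from −0.15 to 0.65. For the difference between stages Hoxa3 ran from −0.27 to 0.95, Hoxa4 from −0.47 to 1.46, Hoxa5 from −0.95 to 0.64 and Hoxb2 from −0.091 to 1.11. The settings for genes outside the Hox clusters were chosen after seeing the data. Control counts of 1 to 7 per library limit the fold changes of Hoxa5 and Hoxb6.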

Other observations

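Homeobox genes related to the Hox genes but outside the clusters were measured for 2 of 8 listed, Gbx2 and Gsx1. Gbx2, a gene of the anterior hindbrain, rose in Eed cKO iOLs by 2.14 ± 0.46 on the log2 scale (edgeR adjusted p = 0.0186), a call that ended without each iOL library (0.0706 to 0.120). Gsx1, a gene of the ventral forebrain and dorsal spinal cord, rose in cKO iOLs by 2.11 ± 0.33 (adjusted p = 0.00470; 0.0577 without control iOL replicate 1). In OPCs neither passed, at 0.36 for Gbx2 and 0.07 for Gsx1.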
